A study of Arabidopsis thaliana with 156 samples.

Results

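Leaf primordia of leaf 3, leaf 5 and leaf 7 were compared in FRI;FLC plants of Arabidopsis thaliana, in 9 of the 156 arrays of the study. The members were all arrays whose titles name FRI;FLC primordia of leaf 3, leaf 5 or leaf 7, with 3 arrays of each position, and no measured value chose them. A primordium is a young leaf that has left the shoot apex and is still growing, and each one taken here was 1 mm long. The plants were of the Col-0 accession with a functional FRI gene introgressed from Sf-2 and with functional FLC. FLC encodes a MADS-box protein that represses flowering and is expressed more strongly where FRI is functional, and such plants stay vegetative for longer. The control genotype used further on, FRI;flc-3, carried the same FRI introgression and the flc-3 allele in place of functional FLC. Each array held RNA of 30 primordia, pooled from 3 collections on 1 day, from plants in 16 h days, amplified and labelled with biotin. Leaf 3 was collected at day 9, leaf 5 at day 11 and leaf 7 at day 14, so leaf position and plant age cannot be told apart.

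Arabidopsis makes rosette leaves of changing form as the shoot passes from its juvenile to its adult vegetative phase. Juvenile leaves are small and round and lack trichomes (leaf hairs) on the lower side, while adult leaves are longer and toothed and carry trichomes on both sides. The change is driven by falling miR156 and rising activity of its SPL targets. FLC, SOC1, FT and the SPL genes SPL3, SPL4, SPL5, SPL9 and SPL15 were not analysed here. The comparison of leaf 7 with leaf 3 asks which transcripts differ between an early and a later leaf at the same length, and leaf 5 shows how they lie between.

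Values are log2 array signals as deposited, and 10 percent of the values of a primordia array lay below a level between 1.95 and 2.06, so that differences near level 2 are of uncertain size. The medians of all 36 primordia arrays lay between 6.76 and 6.92, and arrays of a group correlated at 0.9929 or more. The samples carried the young leaf gene YAB3, a polarity regulator, at 10.61 to 10.90 in the 9 arrays, against a mean of 8.00 in expanded leaf 3 and 11.05 in day 9 apices. JAG, the other measured gene of that list, lay at 3.40 to 4.47, against 2.02 and 5.71. Neither gene was higher than in apices, so they do not tell primordia from apex tissue. Of the stomatal list, SPCH, MUTE, FMA and STOMAGEN were measured. SPCH lay at 4.50 to 6.71, MUTE at 5.24 to 6.75 and FMA at 7.05 to 7.45, each above its mean in expanded leaf 3. STOMAGEN lay at 11.94 to 12.18, against a mean of 6.46 in expanded leaf 3 and 11.56 in day 9 apices. Which cells carry STOMAGEN was not tested, so its level is no measure of the lineage. The stem cell gene CLV3 of the shoot meristem lay at 1.17 to 1.56, near the floor of the arrays, and the senescence gene SAG29 at 1.54 to 2.00. Both were also low elsewhere, CLV3 at a mean of 2.61 in day 9 apices and SAG29 at 2.53 in expanded leaf 3, so they say little. Of the other genes in the list of SAG29, SWEET4 lay at 1.69 to 2.51 against 4.33 in expanded leaf 3. SWEET16 went the other way, at 4.60 to 5.97 against 4.02. Neither of the 2 flower and vascular marker lists had a measured gene. In whole organs, fewer cells of a type and less RNA per cell cannot be told apart.

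Between leaf 3 and leaf 7, 853 of 19324 probe sets rose (4.41%) and 869 fell (4.5%), or 8.91% of those tested at an adjusted p under 0.05. A change of at least 2-fold was seen in 185 of the probe sets that rose and 120 of those that fell. Among 10781 genes with a name, 425 rose, 457 fell and the median difference was -0.02. The number of calls depended on single arrays. It was 915 without leaf 7 replicate 2, 1048 without leaf 3 replicate 2 and 2048 without leaf 7 replicate 3. With the spread taken from the 6 arrays of both positions alone, and not from all 36 primordia arrays, 605 probe sets were called. By that stricter measure, 59 of the 90 called genes in the set of 107 named by rule stayed called, and JAG, OPS, GID1B, DFR, UGT78D2, EXPA4, UBP15, CFM3B, SNZ, AGL87, JAL22, BGLU33, BGLU40, HTR12 and AT2G43620, all described below, were among those that did not.

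JAL23, which encodes a lectin of the jacalin type, rose most among the genes named by size. It stood at 2.76, 2.70 and 2.94 in the leaf 3 arrays, 5.84, 6.23 and 5.80 in leaf 5, and 6.35, 6.89 and 7.10 in leaf 7. The 3 positions did not overlap, and most of the rise (79.2%) had been reached at leaf 5. The difference between leaf 7 and leaf 3 was 3.99 ± 0.24 (SE, 15.9-fold, adjusted p = 1.9e-14). AT4G10270 followed, at 5.70, 5.50 and 5.93 in leaf 3, 6.28, 6.99 and 6.90 in leaf 5 and 8.74 in each leaf 7 array. It rose by 3.03 ± 0.19 (adjusted p = 1.9e-14). AT4G19430 lay at 3.42 to 3.74 in leaf 3 and 6.54 to 6.61 in leaf 7, a rise of 2.98 ± 0.25. Both of these genes carry a locus tag only in the naming used, and their functions were not looked up.

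**Figure D1:**
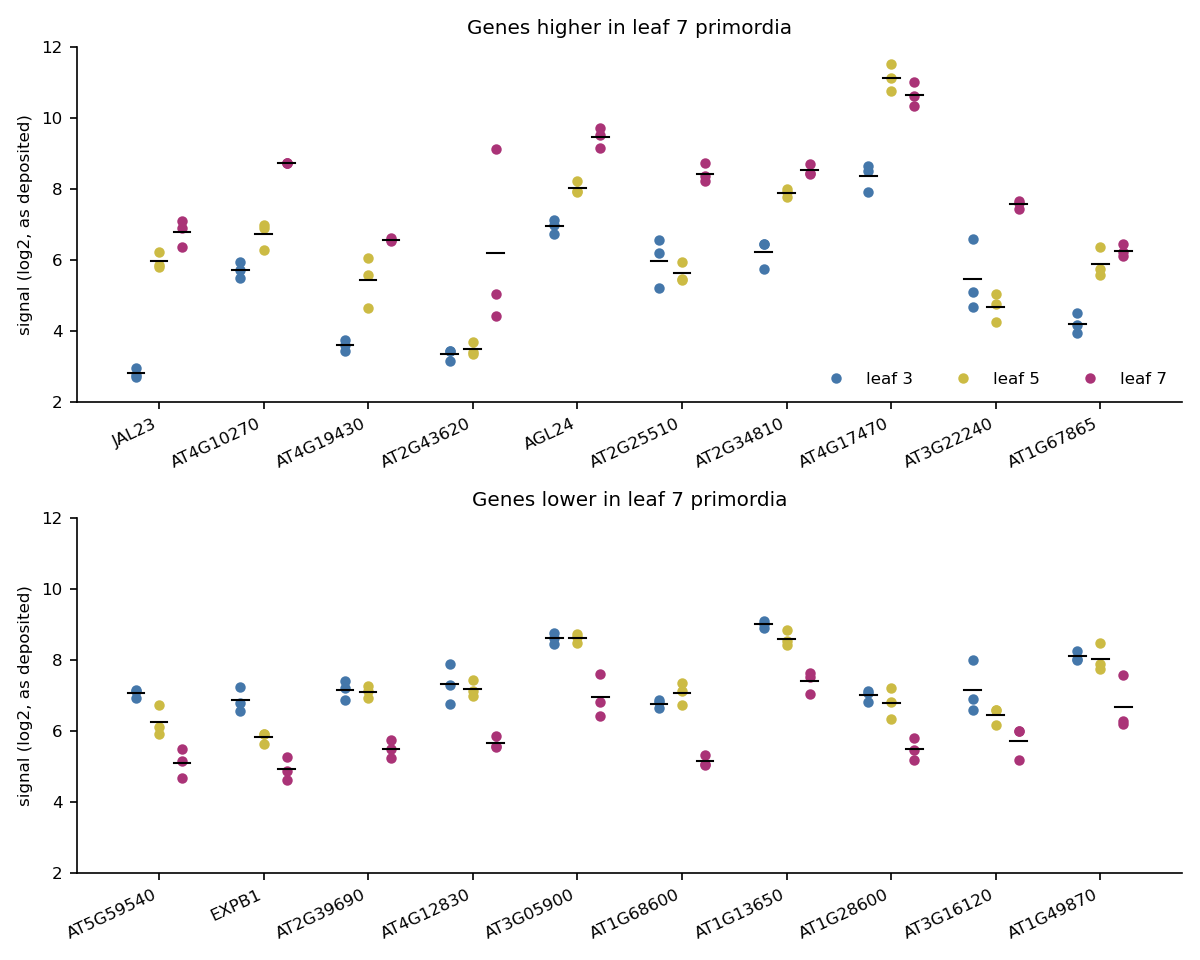
Signal (log2, y axis) of the 10 named genes with the largest rise (top) and the 10 with the largest fall (bottom) from leaf 3 to leaf 7, with a point for each array of leaf 3, leaf 5 and leaf 7 and a bar for the mean of 3. JAL23 rises from between 2.70 and 2.94 at leaf 3 to between 6.35 and 7.10 at leaf 7, and AT2G43620 has 1 leaf 7 array at 9.12, far above the other two.

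The plot of signal by array shows 1 gene whose size rests on a single array. AT2G43620 stood at 3.15 to 3.44 in leaf 3 and at 4.41, 5.03 and 9.12 in leaf 7, with replicate 3 highest. Its difference of 2.85 ± 0.55 (adjusted p = 0.00054) was 1.38 without leaf 7 replicate 3 (adjusted p = 0.001) and was not called with the spread of the 6 arrays alone. The other genes named by size for their rise that carry a locus tag only were tighter. AT2G25510 rose by 2.46 ± 0.37, AT2G34810 by 2.31 ± 0.23, AT4G17470 by 2.29 ± 0.26, AT3G22240 by 2.11 ± 0.34 and AT1G67865 by 2.06 ± 0.21. Groups that do not overlap were part of the rule by which genes were named for size, so the lack of overlap in them is no separate evidence.

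Genes of the floral transition were described as a list of 26 measured genes, mostly of the MADS-box family. A gene counted as measured where a probe set carried its name alone, which held for 26 of 130 genes in this list. The other lists were also covered in part only. In the list 3 genes rose, 2 fell and 21 were not called, with a median of -0.11. Of all probe sets 4.41% rose and 4.5% fell, the shares to set beside the counts of this and later lists. AGL24, a MADS-box gene that promotes flowering, stood at 6.73, 6.99 and 7.11 in leaf 3, 7.93, 7.91 and 8.23 in leaf 5, and 9.51, 9.73 and 9.14 in leaf 7. Every step separated the arrays without overlap, and the rise was 2.52 ± 0.16 (5.73-fold, adjusted p = 2.7e-14), of which 42.8% had been reached at leaf 5. AGL19, another MADS-box promoter of flowering, stood lower, at 3.95, 3.61 and 3.44 in leaf 3 and at 4.38, 4.90 and 4.68 in leaf 7. It rose by 0.99 ± 0.22 (adjusted p = 0.0029). FD, which encodes the bZIP factor that acts with FT at the apex, lay near the floor, at 2.12 to 2.67 in leaf 3 and 2.92 to 3.13 in leaf 7. Its rise of 0.65 ± 0.20 (adjusted p = 0.04) lost its call when any of 4 arrays was left out (leaf 3 replicate 1 or 2, leaf 7 replicate 1 or 2, adjusted p up to 0.2).

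The members that fell were SNZ and AGL87. SNZ, an AP2-like repressor of flowering, stood at 6.86, 6.44 and 6.78 in leaf 3, 7.03, 6.84 and 7.08 in leaf 5, and 5.94, 5.70 and 6.47 in leaf 7. Leaf 7 replicate 3 overlapped the leaf 3 arrays. The fall of SNZ (-0.66 ± 0.19, adjusted p = 0.024) was not called without leaf 7 replicate 1 or 2 or leaf 3 replicate 1 or 3 (adjusted p up to 0.19). AGL87, a MADS-box gene, fell by 0.69 ± 0.17 (adjusted p = 0.0076), a call that ended without leaf 3 replicate 1 (adjusted p = 0.079) or leaf 7 replicate 1.

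Among 12 measured regulators of leaf outgrowth, polarity and margins, 4 rose, 1 fell and 7 were not called, with a median difference of 0.35 against -0.02 for all named genes. These 12 are part of a list of 104 genes. NUB, a zinc finger gene that acts with JAG in the growth of lateral organs, stood at 2.98, 3.46 and 3.20 in leaf 3, 3.19, 3.86 and 3.58 in leaf 5, and 4.71, 4.65 and 5.09 in leaf 7. Leaf 3 and leaf 5 overlapped and leaf 7 lay above both. NUB rose by 1.60 ± 0.31 (3.04-fold, adjusted p = 0.00054). JAG itself, which promotes the growth of the leaf blade, went from 3.40 to 3.88 in leaf 3 to 4.34 to 4.47 in leaf 7. Its rise of 0.74 ± 0.19 (adjusted p = 0.0094) was not called without leaf 3 replicate 2 (adjusted p = 0.078).

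ARL, which promotes cell expansion, stood at 6.82, 7.18 and 6.60 in leaf 3 and at 7.81, 7.74 and 7.54 in leaf 7, a rise of 0.82 ± 0.23 (adjusted p = 0.016). That call ended without leaf 3 replicate 3 (adjusted p = 0.097), leaf 7 replicate 1 or leaf 7 replicate 2. AN, which shapes leaf width and trichome branching and was named after its values were seen, rose from 8.59 to 8.77 in leaf 3 to 9.18 to 9.48 in leaf 7. The difference was 0.66 ± 0.15 (adjusted p = 0.0025) and stayed called without any 1 of the 6 arrays. UBP15, a ubiquitin protease that promotes leaf growth, was the member that fell, by 0.71 ± 0.19 (adjusted p = 0.012). It overlapped between positions, at 8.82, 9.53 and 9.35 in leaf 3 and 8.54, 8.05 and 8.98 in leaf 7, and the fall was 0.47 on the log2 scale without leaf 7 replicate 2 (adjusted p = 0.17), and not called either without leaf 3 replicate 2 or 3.

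TRY, an R3 MYB factor that inhibits trichome fate in neighbouring cells, rose from 7.75, 7.31 and 7.32 in leaf 3 to 8.23, 8.72 and 8.39 in leaf 7. Leaf 5, at 7.34, 6.99 and 7.61, overlapped leaf 3. The difference was 0.99 ± 0.17 (1.98-fold, adjusted p = 0.00014) and no array left out ended the call. SIM, a cell cycle inhibitor of trichomes, was higher by 0.42 ± 0.15 and was not called (adjusted p = 0.08). The third measured gene of the trichome list was not called either. In the stomatal list 0 of 4 genes were called with limma, 1 of them at an unadjusted p under 0.05. SPCH, which starts the lineage, differed by 0.95 ± 0.32 (adjusted p = 0.057) and MUTE, which acts after it, by -0.40 ± 0.32 (adjusted p = 0.51).

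Genes of 3 hormone pathways changed singly. GH3.3, which conjugates auxin to amino acids, stood at 7.81, 7.60 and 7.78 in leaf 3, 7.78, 8.22 and 8.34 in leaf 5 and 8.65, 8.76 and 8.65 in leaf 7. It rose by 0.96 ± 0.16 (adjusted p = 9.9e-05), with 40.3% of the rise reached at leaf 5. YUC4, an enzyme of auxin synthesis, lay at 2.87 to 3.37 in leaf 3 and 4.00 to 4.35 in leaf 7, and rose by 0.99 ± 0.21 (adjusted p = 0.0019). IAA29, which encodes an Aux/IAA repressor, fell from 3.48, 3.58 and 3.58 to 2.62, 2.58 and 2.43, a difference of -1.01 ± 0.14 (adjusted p = 4.4e-06) that was complete at leaf 5. The other 15 of 18 auxin genes were not called, and the median of the list was 0.09.

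ARR15, a type-A response regulator that dampens cytokinin signalling, stood at 8.75, 8.68 and 8.10 in leaf 3 and at 7.56, 7.43 and 7.31 in leaf 7. It fell by 1.07 ± 0.22 (adjusted p = 0.0012), and the other 3 measured cytokinin genes were not called. Of the 86 genes in the cytokinin list, 4 were measured. GID1B, a gibberellin receptor, rose by 0.69 ± 0.16 (adjusted p = 0.0053), from 4.77 to 5.05 in leaf 3 to 5.44 to 5.65 in leaf 7. The remaining 5 of 6 gibberellin genes were not called, though all 6 differences were positive.

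All 5 measured genes of the flavonoid and anthocyanin list rose, with a median difference of 0.89. UF3GT, which encodes a flavonoid glycosyltransferase, stood at 4.11, 4.31 and 4.08 in leaf 3, 5.88, 5.95 and 6.74 in leaf 5, and 5.38, 6.01 and 5.10 in leaf 7. Both later positions lay above leaf 3 without overlap, and leaf 5 reached 152% of the difference. The difference between leaf 7 and leaf 3 was 1.33 ± 0.24 (2.52-fold, adjusted p = 0.00024). DFR, the dihydroflavonol reductase that leads into anthocyanins and was named after its values were seen, had 8.61, 8.11 and 8.12 in leaf 3, 9.21, 9.17 and 9.65 in leaf 5 and 8.88, 9.41 and 8.84 in leaf 7. Its rise of 0.76 ± 0.20 (adjusted p = 0.01) was not called without leaf 7 replicate 2 (adjusted p = 0.12) or leaf 3 replicate 2 or 3.

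AT4G14090, held in the list by its locus tag alone, rose by 1.08 ± 0.25 (adjusted p = 0.0041), and 4CL8, whose name is that of the coumarate-CoA ligase family, by 0.89 ± 0.16 (adjusted p = 0.00033). UGT78D2, a flavonoid glucosyltransferase, had the smallest rise, 0.41 ± 0.13 (adjusted p = 0.047), which was not called without leaf 7 replicate 2 (adjusted p = 0.34) or leaf 3 replicate 2 or 3. In all 5 genes the mean of leaf 5 lay above that of leaf 7, with 4CL8 at 3.90 against 3.59, and of these steps from leaf 5 to leaf 7 that of UF3GT was called (-0.70 ± 0.24, adjusted p = 0.042). These genes make up few of the steps of the pathway, as 5 of the 54 genes in the list were measured under a single gene name. UGT78D1 and UGT78D3, named like UGT78D2 but held in the UGT list alone, were not called (0.12 and 0.07).

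Further single genes rose. OPCL1, a CoA ligase of jasmonate synthesis, stood at 6.05, 6.37 and 6.04 in leaf 3, 7.92, 7.99 and 7.52 in leaf 5 and 7.35, 7.60 and 6.88 in leaf 7. It rose by 1.12 ± 0.21 (adjusted p = 0.00037), and like UF3GT it was highest at leaf 5. CCS, the copper chaperone of superoxide dismutase, rose by 0.93 ± 0.15 (adjusted p = 4.3e-05), from 9.85 to 10.50 in leaf 3 to 10.99 to 11.22 in leaf 7. ATG8B, a ubiquitin-like protein of autophagy, went from 7.39, 6.75 and 6.85 to 8.22, 8.15 and 8.09, a rise of 1.16 ± 0.17 (adjusted p = 7e-06). The other 17 of 18 genes of senescence, autophagy and vacuolar processing were not called. CML38, a calmodulin-like protein, stood at 4.39, 4.68 and 4.18 in leaf 3 and 5.88, 6.23 and 5.52 in leaf 7, and rose by 1.46 ± 0.19 (adjusted p = 1.8e-06).

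CYP71B22, a cytochrome P450, rose by 1.54 ± 0.26 (2.91-fold, adjusted p = 9.3e-05). It was 1 of 2 called among 18 P450 genes, whose median was 0.02, where 8.91% of all probe sets were called. OPS, a regulator of phloem differentiation, rose by 0.87 ± 0.18 (adjusted p = 0.0015), with leaf 5 at 5.10 to 5.30, below the means of both other positions. HTR12, the centromeric histone H3, was the dividing-cell marker and rose by 0.43 ± 0.14 (adjusted p = 0.046), from 9.39 to 9.85 to 10.01 to 10.10. Its call was lost without any 1 of 5 of the 6 arrays, leaf 3 replicate 1 being the exception (adjusted p up to 0.27). Of 12 measured cell cycle and replication genes, out of 102 in the list, 1 rose and 1 fell.

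The genes that fell included expansins, proteins that loosen cell walls. EXPA8 stood at 5.22, 4.82 and 5.35 in leaf 3, 3.09, 3.13 and 3.79 in leaf 5, and 3.15, 2.86 and 2.95 in leaf 7. The fall was 2.14 ± 0.19 on the log2 scale (4.41-fold, adjusted p = 7.4e-10), of which 83.7% was reached at leaf 5. EXPB1 had 7.24, 6.78 and 6.55 in leaf 3, 5.63, 5.91 and 5.92 in leaf 5 and 4.88, 5.25 and 4.61 in leaf 7. Here all positions were apart, and the fall was 1.94 ± 0.21 (adjusted p = 3.3e-08). EXPA16 fell by 1.10 ± 0.20 (adjusted p = 0.00027). Not all expansins fell. EXPA20 rose by 0.97 ± 0.23 (adjusted p = 0.0048) and EXPA4 by 0.66 ± 0.21 (adjusted p = 0.037), although EXPA20 was not called without leaf 3 replicate 2 (adjusted p = 0.055), nor EXPA4 without that array (adjusted p = 0.28), leaf 3 replicate 3 or leaf 7 replicate 2. Over 34 genes of expansins, xyloglucan, pectin and cellulose, 3 rose, 3 fell and the median was -0.04. Of all probe sets 4.41% rose and 4.5% fell.

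In the 2 lists of plastid-encoded genes 2 of 45 and 3 of 22 were called, all lower. Of all probe sets tested, 8.91% were called in either direction and 4.5% were called lower. RNA for the arrays was amplified, and how well this measures plastid transcripts was not tested. Of 45 plastid genes of photosynthesis, 39 had negative differences, with a median of -0.20, but 2 were called. They were rbcL, the large subunit of Rubisco, and atpB, a subunit of ATP synthase. The former stood at 11.04, 10.60 and 10.84 in leaf 3 and 10.31, 10.38 and 9.93 in leaf 7, a difference of -0.62 ± 0.16 (adjusted p = 0.01). It was not called without leaf 7 replicate 3 or leaf 3 replicate 1 (adjusted p up to 0.068). The difference of atpB was -0.23 ± 0.07 (adjusted p = 0.027), and it lost its call without leaf 3 replicate 2, leaf 7 replicate 1 or leaf 7 replicate 2 (adjusted p up to 0.17). Of 18 nuclear photosynthesis genes 15 had negative differences, with a median of -0.15. None of them was called with limma, and 6 had an unadjusted p under 0.05.

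The list of plastid genes for the polymerase, ribosomal proteins and related functions had 3 of 22 called, all lower, and a median of -0.15. The 3 called genes encode subunits of the plastid RNA polymerase, and the fourth measured subunit gene, rpoA, was not called (0.15 ± 0.19, adjusted p = 0.71). In leaf 3 rpoB stood at 5.59, 5.93 and 5.83, and in leaf 7 at 4.59, 3.97 and 5.08, a difference of -1.24 ± 0.27 (adjusted p = 0.0026). The differences of rpoC1 and rpoC2 were -0.76 ± 0.19 (adjusted p = 0.007) and -0.80 ± 0.17 (adjusted p = 0.0019). Leaving out leaf 7 replicate 2 ended the calls of rpoB and rpoC2 (adjusted p = 0.051 for each), and leaving out leaf 7 replicate 1 ended that of rpoC1 (adjusted p = 0.068).

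Single nuclear genes for plastid proteins fell, while none of the 18 nuclear photosynthesis genes was called. CFM3A, a splicing factor of chloroplast introns, stood at 8.40, 9.40 and 9.43 in leaf 3, 9.20, 9.01 and 8.97 in leaf 5, and 7.61, 7.78 and 8.37 in leaf 7. It fell by 1.16 ± 0.22 (adjusted p = 0.00052). CFM3B, of the same family, fell by 1.36 ± 0.29 (adjusted p = 0.0018) with overlapping arrays (8.00, 9.28 and 8.41 against 7.14, 6.20 and 8.27), and its difference was -0.86 without leaf 7 replicate 2 (adjusted p = 0.056). FZL, a dynamin-like protein of thylakoids, fell by 1.05 ± 0.20 (adjusted p = 0.00058), from 6.91, 7.17 and 7.17 to 6.13, 5.78 and 6.20, with leaf 5 at the level of leaf 3.

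Other genes that fell were ASPGB1, NERD, DRT100 and SWEET11. ASPGB1, an asparaginase, stood at 8.54, 7.87 and 8.09 in leaf 3, 8.21, 8.73 and 8.54 in leaf 5, and 6.96, 7.10 and 6.73 in leaf 7, a difference of -1.24 ± 0.21 (adjusted p = 0.0001). NERD, which takes part in RNA-directed DNA methylation, fell by 1.17 ± 0.20 (adjusted p = 0.00017). For DRT100, a gene of DNA damage tolerance, the fall was 1.41 ± 0.18 (adjusted p = 7.9e-07), of which 83.1% was reached at leaf 5. SWEET11, a sucrose exporter, had low levels, 4.02 to 4.27 in leaf 3 and 3.03 to 3.48 in leaf 7, and fell by 0.91 ± 0.22 (adjusted p = 0.0061). BZIP61, a bZIP factor, fell by 1.11 ± 0.22 (adjusted p = 0.00065). Falls of 1.42 to 1.97 on the log2 scale were seen in the 9 genes named by size that carry a locus tag only, of which AT5G59540 had the largest (7.13, 6.93 and 7.14 in leaf 3 against 4.66, 5.14 and 5.49 in leaf 7) and AT1G49870 the smallest. One of the 9, AT3G16120, was not called without leaf 3 replicate 1 (adjusted p = 0.053).

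JAL23 belongs to a list of beta-glucosidases and jacalin lectins. The list also holds some genes of ER bodies, the compartments in which these plants store beta-glucosidases against herbivores. Of 24 measured genes 2 rose, 3 fell and the median was -0.09, where 4.41% of all probe sets rose and 4.5% fell. NAI1, the bHLH factor needed to form ER bodies, rose by 0.86 ± 0.22 (adjusted p = 0.011), from 3.53, 3.55 and 3.66 to 4.50, 4.72 and 4.10, a call that ended without leaf 7 replicate 2 (adjusted p = 0.09). PYK10, the main beta-glucosidase of ER bodies, was not called (0.16 ± 0.22, adjusted p = 0.73) and stood at 8.60 to 9.70 in leaf 3, 7.85 to 8.39 in leaf 5 and 8.79 to 9.46 in leaf 7. JAL22, another jacalin lectin, fell by 0.85 ± 0.21 (adjusted p = 0.0088), which was not called without leaf 3 replicate 3 (adjusted p = 0.093). The beta-glucosidases BGLU33 and BGLU40 fell by 0.85 ± 0.23 (adjusted p = 0.016) and 0.66 ± 0.19 (adjusted p = 0.022), calls that ended without 2 and 4 of the arrays, respectively. These were leaf 3 replicate 3 and leaf 7 replicate 3 for both, with leaf 3 replicate 2 and leaf 7 replicate 1 in addition for BGLU40 (adjusted p up to 0.12 and 0.086).

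**Figure D2:**
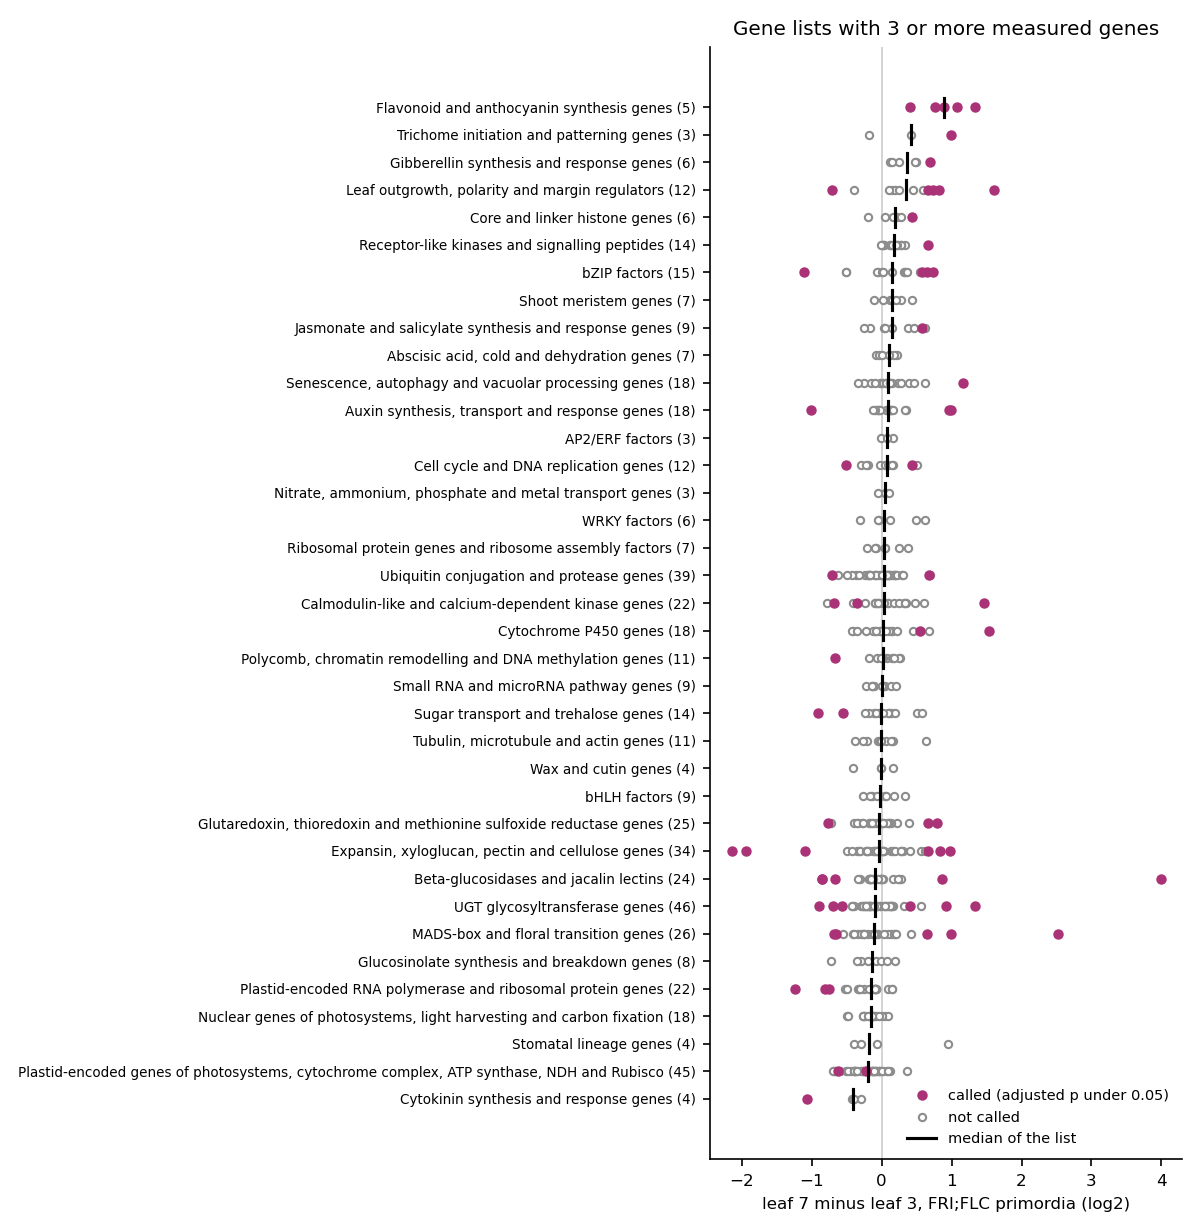
Differences between leaf 7 and leaf 3 (log2, x axis) of each measured gene in the lists with 3 or more measured genes, with the number measured in brackets, filled points for called genes and a bar at the median. The flavonoid list lies wholly above 0, and the plastid lists (2 of 45 and 3 of 22 called) and the cytokinin list (1 of 4 called) have medians below 0.

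The plot of gene lists shows that most lists had medians near that of all named genes. For the counts that follow, 4.41% of all probe sets rose and 4.5% fell. Among UGT glycosyltransferases 3 of 46 rose and 3 fell, with a median of -0.10, and among bZIP factors 3 of 15 rose and 1 fell. Of 39 genes of ubiquitin conjugation 1 rose and 1 fell, and of 22 calmodulin-like and related genes 1 rose and 2 fell. Thiol and glutathione enzymes had 2 of 25 genes higher and 1 lower. MSRB9, a methionine sulfoxide reductase of that list, rose by 0.66 ± 0.17 (adjusted p = 0.011), a call that ended without leaf 3 replicate 2 (adjusted p = 0.079) or leaf 7 replicate 1. Shoot meristem genes (7 measured), ribosome genes (7), small RNA pathway genes (9), cytoskeleton genes (11) and WRKY factors (6) had 0 called with limma, and at an unadjusted p under 0.05 there were 1, 0, 0, 3 and 3. These were 7 of 55, 7 of 71, 9 of 53, 11 of 107 and 6 of 68 genes in their lists, so most genes of each were not measured.

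Leaf 5 did not lie simply between the other positions. From leaf 3 to leaf 5, 519 probe sets rose and 403 fell (4.77% of all), and from leaf 5 to leaf 7, 1533 rose and 1484 fell (15.6%). The count for the first step was 373 without leaf 3 replicate 1, 472 without leaf 5 replicate 2 and 552 without leaf 5 replicate 3, and for the second step 1869 without leaf 7 replicate 1 and 1456 without leaf 7 replicate 2. These comparisons share the leaf 5 arrays, and the first shares leaf 3 and the second leaf 7 with the overall comparison. Of the 853 probe sets that rose from leaf 3 to leaf 7, the mean of leaf 5 lay between them in 536, beyond leaf 7 in 129 and on the far side of leaf 3 in 188. Of the 869 that fell, the counts were 562, 50 and 257. A probe set that rose had reached a median of 33.8% of its change at leaf 5, and one that fell 23.5%.

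Leaf 5 itself differed from the mean of leaves 3 and 7 in 2046 probe sets (10.6%), with 1005 higher and 1041 lower. The number was 1362, 1037 and 1128 without leaf 5 replicate 1, 2 and 3, and 1236 without leaf 3 replicate 1. AR781, whose function was not looked up, stood at 4.67, 4.88 and 5.09 in leaf 3, 6.85, 6.67 and 6.95 in leaf 5 and 5.12, 5.58 and 5.75 in leaf 7. It was 1.94 ± 0.21 higher in leaf 5 than in leaf 3 (adjusted p = 6.9e-08) and 1.34 ± 0.21 lower in leaf 7 than in leaf 5 (adjusted p = 6.7e-05), so that leaf 5 was apart from both. VIIIB, a myosin, and iqd33, a gene of the IQ-domain family, also had their highest means in leaf 5. VIIIB stood at 5.91, 7.23 and 7.45 there, so that leaf 5 replicate 1 overlapped leaf 3 (4.99 to 5.93), while iqd33, at 7.10 to 7.42, lay above leaf 3 (6.01 to 6.37) and leaf 7 (4.97 to 6.12). Among plastid genes petD, psaC and ndhG had their lowest means in leaf 5. In these genes leaf 5 replicate 2 stood apart, with petD at 6.35 against 9.10 and 8.05 in the other leaf 5 arrays, psaC at 8.27 against 9.77 and 9.33, and ndhG at 6.64 against 8.05 and 7.50.

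The length of the gene moved with these differences. Genes higher in leaf 5 than in the mean of leaves 3 and 7 had a median length of 3847 bp and genes lower 1624 bp, against 2219 bp for all named genes. Between leaf 3 and leaf 7 the medians were 1792 bp for genes that rose and 2671.5 bp for genes that fell. The slope of signal on log2 gene length was 0.438 to 0.562 in the leaf 3 arrays, 0.585 to 0.615 in leaf 5 and 0.411 to 0.534 in leaf 7. With a linear trend on length removed from each array, 826 of 10857 probe sets were called between leaf 3 and leaf 7, against 810 of the same probe sets without the correction. For leaf 5 against the mean of the others the counts were 867 and 1192. Of the 89 called named genes that could be refitted this way, 86 stayed called between leaf 3 and leaf 7 with the trend removed and 85 without the correction. Beyond these calls, what part the slope has in single genes was not tested.

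**Figure D3:**
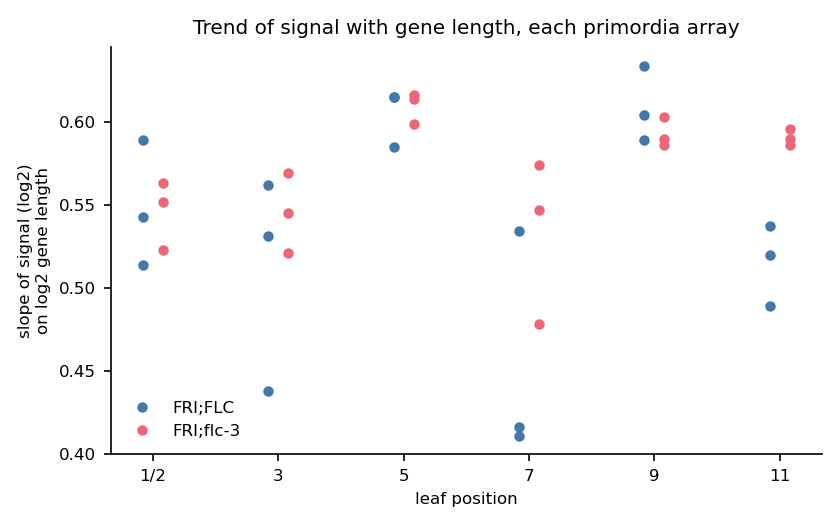
Slope of signal (log2) on log2 gene length (y axis) in each primordia array by leaf position (x axis), with a point for each array of FRI;FLC and FRI;flc-3. The leaf 5 arrays lie at 0.585 or above in both genotypes, and the FRI;FLC leaf 7 arrays spread from 0.411 to 0.534.

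Primordia of leaves 1/2, 9 and 11, which share no array with leaves 3 and 7, gave the wider course along the shoot. They were compared as the mean of leaves 9 and 11 (days 16 and 18) minus leaves 1/2 (day 6), in which 8591 probe sets were called (44.5%). Of the 853 probe sets that rose between leaf 3 and leaf 7, 83.4% had a positive difference here, against 51.8% of all probe sets, and 574 were called higher and 58 lower. Of the 869 that fell, 88.6% had a negative difference, against 48.2% of all, with 630 called lower and 33 higher. The medians were 0.65 and -0.72.

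AGL24 stood at a mean of 2.32 in leaves 1/2, 6.94 in leaf 3, 8.02 in leaf 5, 9.46 in leaf 7, 9.61 in leaf 9 and 10.08 in leaf 11. JAL23 was at 2.48 in leaves 1/2 and 7.81 and 7.78 in leaves 9 and 11. EXPA8 went the other way, from 7.36 in leaves 1/2 to 2.32 and 2.37 in leaves 9 and 11, and EXPB1 from 8.61 to 4.99 and 4.52. A difference of 3.34 ± 0.14 in GH3.3 and 1.91 ± 0.15 in TRY (adjusted p = 9.5e-21 and 2.6e-13) had the same direction as between leaves 3 and 7. AN, GID1B, CCS and ARR15 did not pass the test across the wider range, with differences of -0.17, -0.08, 0.12 and 0.02. For the genes that fell from leaf 3 to leaf 7 and were not called across the wider range, the median length was 3015 bp. UBP15, CFM3B and NERD were among these, at 0.31 ± 0.16, -0.34 ± 0.25 and -0.12 ± 0.18.

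**Figure D4:**
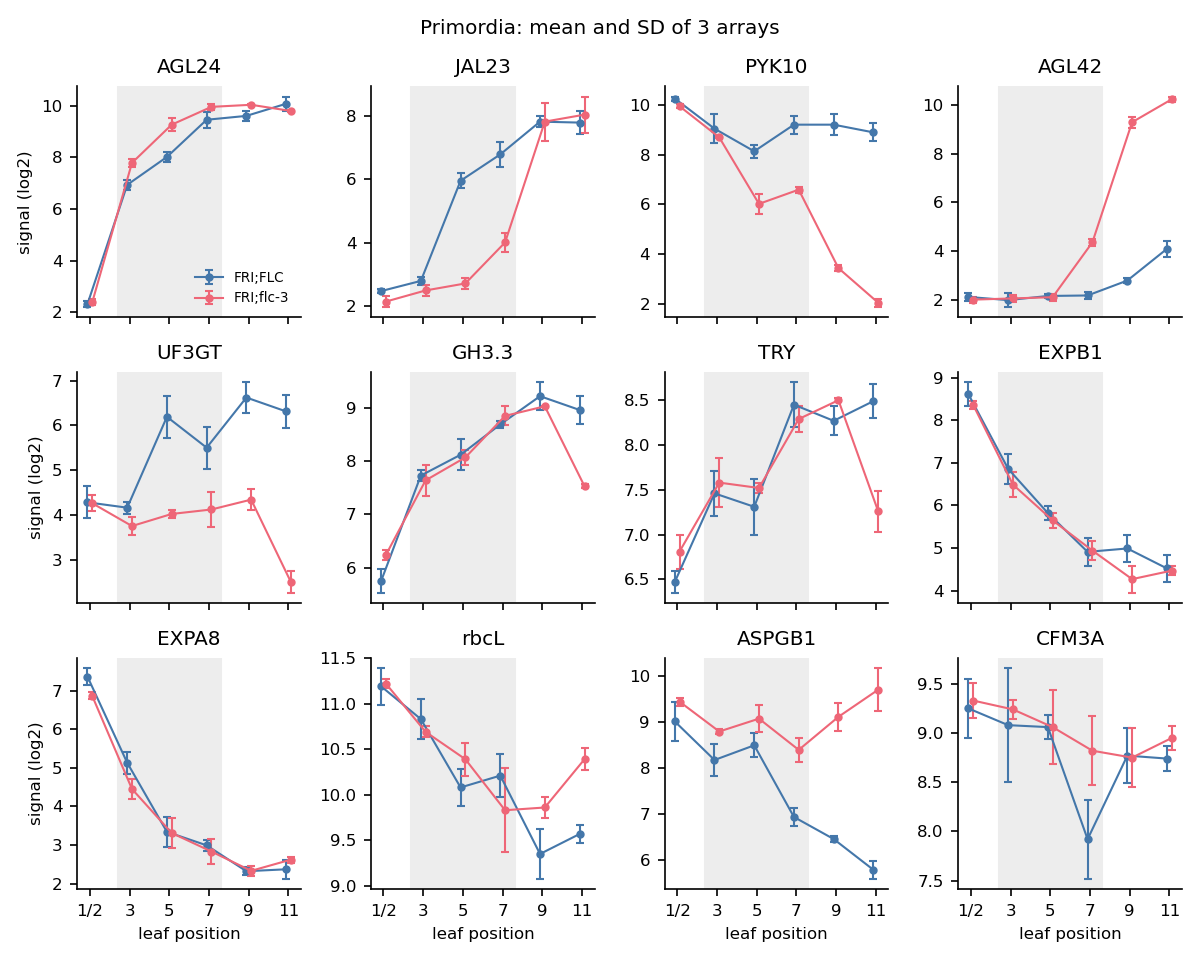
Mean signal and SD of 3 arrays (log2, y axis) at each leaf position (x axis, positions 3 to 7 shaded) for 12 genes in FRI;FLC and FRI;flc-3 primordia, each panel with its own y range. AGL24 climbs from 2.32 to 10.08 along the FRI;FLC shoot, EXPA8 falls from 7.36 to 2.37, and JAL23 and PYK10 part between the genotypes at leaves 5 and 7.

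The same positions and days in FRI;flc-3 primordia, 3 arrays each, tell which differences were also present without functional FLC. There 480 probe sets rose and 435 fell from leaf 3 to leaf 7 (4.74%). The number was 514 without FRI;flc-3 leaf 3 replicate 1 and 556 without FRI;flc-3 leaf 7 replicate 2. Of those that rose in FRI;FLC, 89.3% had a positive difference in FRI;flc-3, against 48.6% of all probe sets, and 264 were called higher and 3 lower. Of those that fell, 93.7% had a negative difference, against 51.4% of all, and 221 were called lower and 2 higher. The median differences were smaller, at 0.40 and -0.34, than the 0.70 and -0.65 in FRI;FLC, where the probe sets had been chosen by their calls.

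AGL24 rose in FRI;flc-3 from 7.66, 7.75 and 7.97 to 10.08, 9.97 and 9.85, by 2.17 ± 0.16 (adjusted p = 2.2e-12), and a difference between the genotypes in this rise was not called (0.34 ± 0.22, adjusted p = 0.89). GH3.3, ATG8B, CCS, TRY, EXPA8 and EXPB1 were called in the same direction in both genotypes, with differences in FRI;flc-3 of 1.21, 1.22, 1.08, 0.71, -1.62 and -1.55. The flavonoid genes gave no call in FRI;flc-3, where UF3GT stood at 3.61 to 3.97 in leaf 3 and 3.84 to 4.58 in leaf 7 (0.37 ± 0.24, adjusted p = 0.46). The difference between genotypes was not called for any of the 5 (UF3GT 0.96 ± 0.34, adjusted p = 0.44), so the effect is not shown to depend on the genotype.

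The change from leaf 3 to leaf 7 differed between the genotypes in 63 probe sets (0.326%), 39 with a higher value in FRI;FLC and 24 with a lower one, and in 40 without FRI;FLC leaf 3 replicate 2 or leaf 7 replicate 2. Of these, 36 had opposite signs in the 2 genotypes, while 42 were called in FRI;FLC, 31 in FRI;flc-3 and 11 in both. Most of the opposite signs are therefore not reversals called in both genotypes. JAL23 rose in both, by 3.99 in FRI;FLC and by 1.51 ± 0.24 in FRI;flc-3, where it went from 2.32 to 2.67 to 3.77 to 4.33, and the genotypes differed by 2.48 ± 0.34 (adjusted p = 4.7e-05). PYK10 fell in FRI;flc-3 from 8.68, 8.74 and 8.66 to 6.72, 6.49 and 6.56, by 2.10 ± 0.22, while it was not called in FRI;FLC, and this difference was 2.27 ± 0.32 (adjusted p = 4.7e-05). JAL34, a jacalin lectin, followed PYK10, with a fall of 1.20 ± 0.18 in FRI;flc-3 and a difference between genotypes of 1.44 ± 0.26 (adjusted p = 0.0029).

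IAA29 fell in FRI;FLC to 2.43 to 2.62 at leaf 7, while FRI;flc-3 stood at 2.41 to 2.68 at leaf 3 and 2.60 to 2.75 at leaf 7. The genotypes differed in the change by -1.12 ± 0.20 (adjusted p = 0.0023). AGL42, a MADS-box gene of the family that promotes flowering, lay outside the naming rule by its low level and was named after its values were seen. It stayed at 1.70 to 2.35 in all 9 FRI;FLC arrays of leaves 3, 5 and 7, and went from 1.94 to 2.22 at leaf 3 to 4.24 to 4.52 at leaf 7 in FRI;flc-3. The difference between genotypes was -2.09 ± 0.22 (adjusted p = 3.5e-07).

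**Figure D5:**
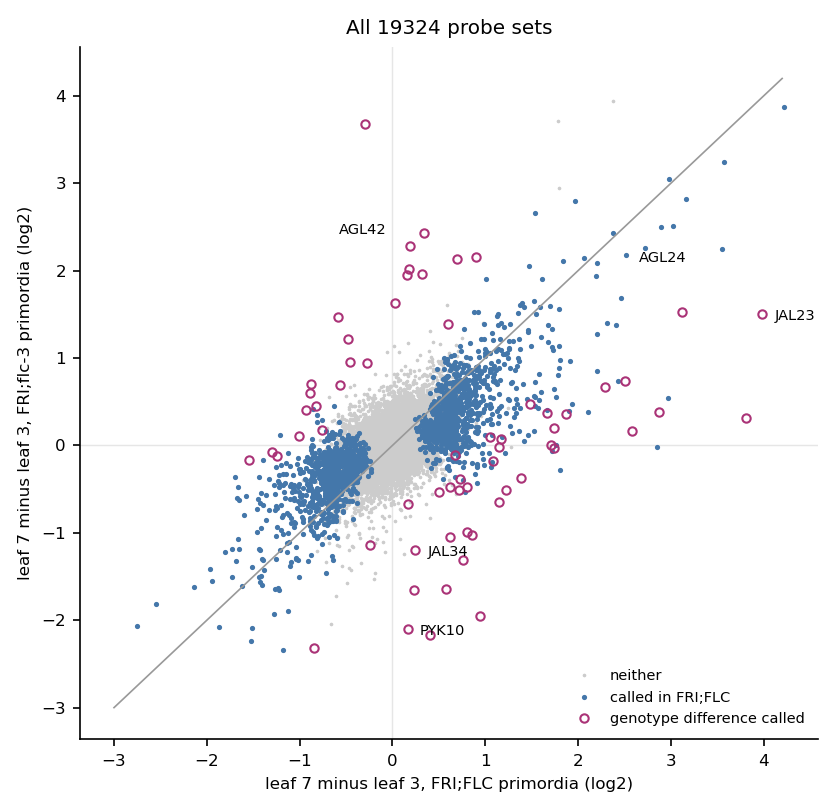
Difference between leaf 7 and leaf 3 (log2) in FRI;FLC primordia (x axis) and FRI;flc-3 primordia (y axis) for each of 19324 probe sets, with the line of equal change. Most probe sets called in FRI;FLC lie on the same side of 0 in both, and JAL23, PYK10, JAL34 and AGL42 are among the 63 off the line (open circles).

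Fully expanded FRI;FLC leaves of the same experiment, from plants grown in flats of another kind, were taken at day 23 for leaf 3 and day 29 for leaf 7, with 3 arrays of 9 leaves each. Between them 786 probe sets were higher in leaf 7 and 634 lower (7.35%), a number that was 599 without expanded leaf 7 replicate 1, 822 without expanded leaf 3 replicate 3 and 143 with the spread of these 6 arrays alone. Of the probe sets that rose in primordia, 59.0% had a positive difference in expanded leaves, against 47.0% of all, and 108 were called higher and 27 lower. Of those that fell, 54.9% had a negative difference, against 53.0% of all, and 45 were called lower and 47 higher. AGL24 and JAL23 rose in expanded leaves as well, by 1.58 ± 0.29 (adjusted p = 0.00014) and 1.65 ± 0.50 (adjusted p = 0.033).

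The change from leaf 3 to leaf 7 differed between primordia and expanded leaves in 631 probe sets (3.27%), of which 512 had opposite signs at the 2 stages. Of the 631, 302 were called in primordia and 76 at both stages. Most of the opposite signs are therefore not reversals called at both stages. Without primordia leaf 7 replicate 2 or 1 the number that differed between stages was 368 or 415, and without leaf 3 replicate 2 or 3 it was 388 or 398. TRY rose in primordia and fell in expanded leaves (-1.17 ± 0.26, from a mean of 9.70 to 8.53), a difference between stages of 2.15 ± 0.37 (adjusted p = 0.00022). IAA29 fell in primordia and rose in expanded leaves, from 7.67 to 9.05, and differed by -2.38 ± 0.53 (adjusted p = 0.0046). NET1B, an actin-binding protein, fell in primordia by 0.85 ± 0.23, a call lost without leaf 7 replicate 1 or 2 or leaf 3 replicate 2 or 3 (adjusted p up to 0.15), and rose in expanded leaves by 1.71 ± 0.43. Their change differed by -2.56 ± 0.61 (adjusted p = 0.0083).

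HYH, a bZIP factor of light signalling, was not called in primordia (0.31 ± 0.19) and fell by 2.21 ± 0.33 in expanded leaves, from a mean of 9.37 to 7.15, which gave a difference between stages of 2.53 ± 0.47 (adjusted p = 0.00052). GLDH, the enzyme of the last step of ascorbate synthesis, also fell in expanded leaves, by 1.53 ± 0.29, and was not called in primordia (0.47 ± 0.16). EXLA1, an expansin-like gene, rose from 8.29 (SD 1.16) to 10.73 (SD 1.33) in expanded leaves and stood at 3.37 to 4.16 in primordia of both positions.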

How the data were processed

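The authors deposited a log2 signal for each probe set and array. Per the submitters' processing notes the tools were GCRMA and MAS5, with no role or version given in these sources. The values were used unchanged. Arrays hold no counts, so their number limits precision, and each p-value reflects how far separate pools of organs in 1 experiment differed.

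With limma 3.58.1 (R 4.3.3, eBayes with trend), models of 1 coefficient per group were fitted to the 36 primordia arrays and, for leaf stages, to 72 arrays of primordia and expanded leaves of experiment 1. Tests were two-sided, adjusted by Benjamini-Hochberg over 19324 probe sets, and called under 0.05. In simulated data for leaf 7 against leaf 3, with 200 of 19324 probe sets changed, 32% of changes of 0.5 and 89% of changes of 1 (log2) were called, with 4 false calls. The simulated noise was normal and independent between probe sets. Deviations shared across an array were not simulated, so the number of false calls does not cover them.

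The naming table lists 11325 probe sets, 10918 with 1 gene, 407 with several and 7999 not listed, and 41 are controls. They give 10781 genes, 1416 with a symbol, updated through RefSeq (TAIR10.1). A gene with more than 1 probe set was represented by its brightest on average over the primordia arrays. The rule named the 10 largest differences in each direction among called genes with a higher group mean of 6 or more and no overlap. It also named the next 8 with a symbol, up to 3 called members of each list and direction, and up to 4 genes per direction of the other comparisons. In those comparisons genes with a symbol came before genes with a locus tag only, whatever their size. The members, the 42 gene lists (41 with measured genes) and the tests were chosen with earlier results of these data known. From the lists 9 genes were left out because their symbol stands for another gene (CHI, for instance, is a chitinase in RefSeq). Of these, CHI and PMEAMT had been called. This was done after their values were seen. Motifs and sequences were not analysed here. The alternatives were other normalizations, filters, priors, weights, a replicate block, a gene length correction and single arrays left out.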

Additional observations from a re-analysis of the deposited data

Results flagged for a closer look

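The difference between leaf 7 and leaf 3 differed between the genotypes, by a test of that difference itself, in the genes named for it by rule. These were up to 4 in each direction, with genes that have a symbol taken first. IAA29, AGL42 and AT4G17470 also passed this test. The difference was larger in FRI;FLC than in FRI;flc-3 primordia by 2.48 in JAL23, 2.27 in PYK10, 1.44 in JAL34 and 1.77 in AT2G20670 (adjusted p = 0.017 for the last). It was lower in FRI;FLC by 1.84 in AT4G21650 (-1.84, adjusted p = 0.0029) and by 1.80 in AT3G14395 (-1.80, adjusted p = 0.0007), which rose in FRI;flc-3 by 2.02 and 1.95 and were not called in FRI;FLC.

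Between the stages of the leaf the same kind of test was passed by more of the named genes than the 4 per direction given here. NUB, CCS, YUC4 and ATG8B were among them. The 4 per direction were taken by size from genes with a symbol first, so larger differences in genes with a locus tag only are left out. AT3G14395 (3.61, adjusted p = 0.0031) and AT3G05900 (-3.50, adjusted p = 0.0052) are such genes. The difference was higher in primordia than in expanded leaves by 2.53 in HYH, 2.15 in TRY, 2.00 in GLDH and 1.88 in UGT84A3, and the 4 had fallen in expanded leaves by 2.21, 1.17, 1.53 and 1.72. It was lower in primordia in ZW9 (-3.76), EXLA1 (-2.94), NET1B (-2.56) and IAA29 (-2.38), which had risen in expanded leaves by 3.28, 2.44, 1.71 and 1.37. In EXLA1 and IAA29 the expanded leaf arrays varied more than the primordia arrays. Leaf position and plant age differ together at both stages.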

How the results depend on the processing

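Of the 90 named genes called between leaves 7 and 3, none that could be tested reversed under the settings run for that comparison, where the filter on signal left 37 to test. With all 6 arrays but 1, 52 of the 90 called named genes stayed called each time. With quantile normalization 89 stayed, with centred arrays 88, without trend in the prior 87, with array weights 85 and with length removed 86 of 89 tested. Calls between leaves 7 and 3 numbered 832 above the median signal, 826 with length removed, 810 for the same probe sets uncorrected and 605 with the groups compared alone. In that order the counts were 475, 370, 470 and 291 for leaf 5 minus leaf 3. For leaf 7 minus leaf 5 they were 1394 with length removed, 1677 uncorrected and 1260 with the groups alone. Leaf 5 against the mean of both gave 867 with length removed, 1192 uncorrected and 518 with the groups alone. In FRI;flc-3 the counts above the median signal, with length removed and uncorrected were 428, 479 and 457, and 1514 with array weights. For the genotype difference they were 21, 16 and 19, for leaves 9 and 11 against 1/2 5166, 4798 and 4731. Expanded leaves gave 572, 828 and 675, and 143 with the groups alone, and the stage difference 202, 355 and 289, and 1480 with array weights. Leaving out single arrays gave ranges of 915 to 2048 (leaf 7 minus 3), 373 to 1110 (5 minus 3), 1456 to 3410 (7 minus 5), 1037 to 2603 (leaf 5 against both), 514 to 813 (FRI;flc-3), 40 to 75 (genotype), 7387 to 8399 (9 and 11 minus 1/2), 599 to 1530 (expanded) and 368 to 575 (stage). Replicate numbers were not used as pairs in the main fit. Deviations from group means of 9 same-numbered pairs correlated at -0.286 to 0.305, 3 of them above 0.1. Such deviations sum to 0 within a group, so these correlations cannot settle whether the arrays were paired. With the replicate block 1641 probe sets were called. Where values changed, the cause was not tested, apart from fewer probe sets or arrays.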
